A study of Homo sapiens with 2 samples.

Results

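The genes described here encode motors, centrosome and augmin components, tubulins and tubulin-binding proteins, chosen by name from the deposited expression table. Members were the gene names that begin with KIF, with CEP, HAUS, TACC or IFT followed by a digit, or with CKAP, TUBA, TUBB, TUBG or STMN, leaving out the spindle kinesins KIF11, KIF20A, KIF23 and KIF2C. The rule found 34 genes among the 1947 in the table. RNA with poly(A) tails was sequenced from the human prostate cancer cell line C4-2, an established line of LNCaP descent, grown in RPMI-1640 with fetal bovine serum at passages 10 to 15. Vehicle was given to 1 culture and ebastine, a histamine H1 receptor antagonist, to the other, which gave 1 library per group and no replicates. The series title names the Polycomb methyltransferase EZH2 as the drug's target, and the sources used here do not give the dose or the exposure time.

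Microtubules are polymers of alpha and beta tubulin that grow from the centrosome, a pair of centrioles embedded in pericentriolar material, where gamma tubulin ring complexes nucleate them. Augmin recruits the same ring complexes to existing microtubules and so amplifies the spindle. Kinesins walk along microtubules or depolymerise them, some moving chromosomes and spindle poles in mitosis and others carrying cargo in interphase. In resting cells the older centriole can template a primary cilium, built by intraflagellar transport (IFT) trains that kinesins carry.

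Only genes with a p-value under 0.05 in the authors' deposited table are listed, so every member had already passed that limit. FPKM (fragments per kilobase of transcript, scaled to the mapped fragments of the library) is a level per transcript length and can be compared between genes. Ratios below are log2((FPKM in ebastine + 1)/(FPKM in vehicle + 1)), a scale that understates differences of low genes. The fold values are the same ratios on a linear scale. The depth is unknown, and no ratio has an error. The table lists 6 luminal prostate markers, 3 lower and 3 higher, among them KLK3 at 2476 and 1599 FPKM and FOLH1 at 495 and 840.4 FPKM. None of 3 basal or 4 fibroblast and endothelial markers was listed, and the leukocyte marker CD4 stood at 0.400 and 0.693 FPKM.

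Most of these genes were lower in the ebastine library. Of the 34 members 33 had a mean of at least 1 FPKM over both libraries, and the exception, KIF19, is described below. Of the 33, 29 were lower and 4 were higher, where 57% of all 1768 listed genes at that level were lower and 43% were higher. By at least 1.5-fold, 16 were lower, against 18.6% of the listed genes, and 0 were higher, against 9.67%. By at least 2-fold, 4 were lower, against 4.86%, and 0 were higher, against 1.81%. The median log2 ratio of the members was -0.54, and that of all listed genes was -0.32. The authors' deposited table gave a q-value under 0.05 to 18 members that were lower, where 25.4% of all listed genes were lower at that limit, and to 2 that were higher, against 15.6%.

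The size of this difference depended on how the libraries were scaled. The ebastine values were multiplied by 1.27, which sets to 1 the median ratio of those listed genes whose mean reaches 10 FPKM (centring). The table is filtered by p-value and holds few ratios near 0. Its median therefore depends on how many listed genes were lower or higher, and the factor is no measure of library depth. Setting the sums over all listed genes equal gave a factor of only 1.001. After centring, 27 members were still lower, against 51% of the listed genes, and 5 were higher. CEP57 was at exactly 0 by construction, because its own ratio was the median that set the factor. The split at 1.5-fold was then 6 lower and 4 higher in place of 16 and 0, where 6.84% of all listed genes were lower and 40.6% were higher at that limit. After upper quartile rescaling it was 13 lower and 3 higher, against 10.4% and 24.4% of all listed genes. Members just inside the 1.5-fold limit were HAUS1 and CEP78, at 1.51-fold and 1.53-fold, and CEP152 at 1.45-fold was just outside it. Whether fewer cells were dividing or each cell held less of these RNAs cannot be told apart in a bulk library.

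**Figure D1:**
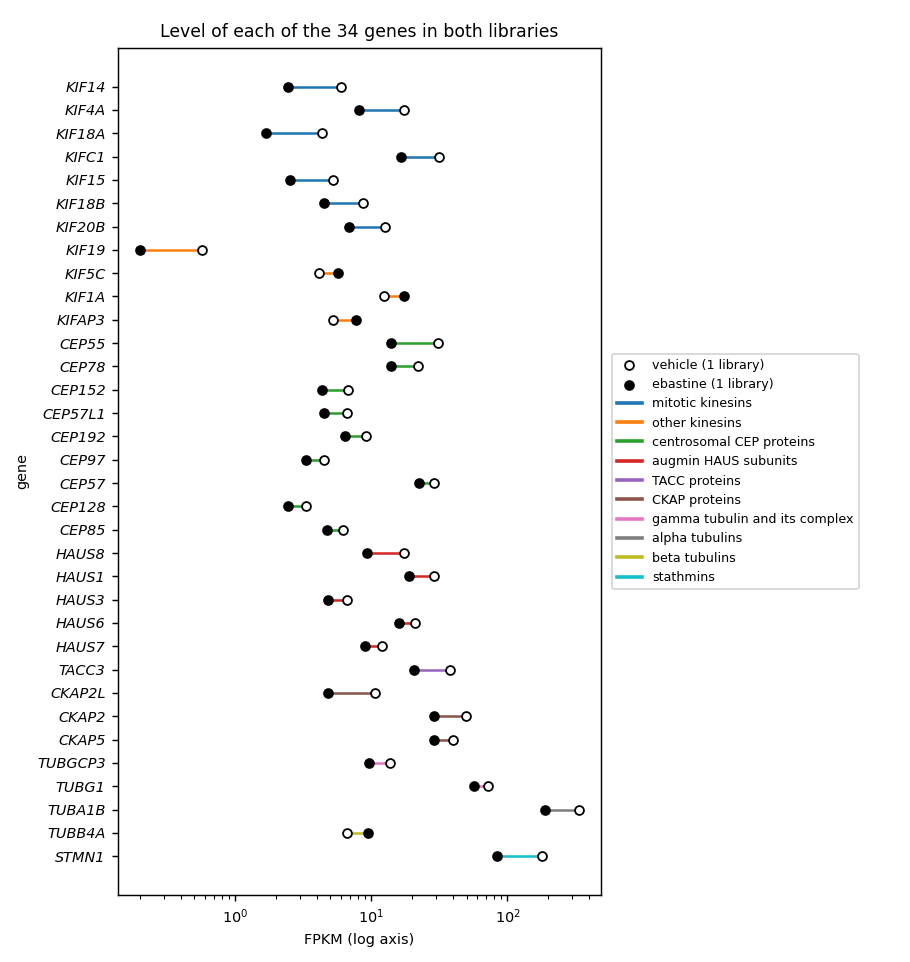
FPKM on a log axis of each of the 34 genes in the vehicle library (open points) and the ebastine library (filled points), 1 library each, with lines coloured by role. The filled point lies to the left of the open one in all genes except KIF5C, KIF1A, KIFAP3 and TUBB4A.

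The listed kinesins of mitosis were all lower. Of 10 kinesins named for a mitotic role, 7 were listed, where 14.2% of the genes the authors tested were. All 7 were lower by at least 1.5-fold, against 18.6% of all listed genes. Their log2 ratios ran from -1.02 to -0.79 around a median of -0.90, or 1.86-fold. KIF14, a motor of cytokinesis (chromosome 1, 200520625 to 200589862 in hg19), stood at 5.99 FPKM in vehicle and 2.45 FPKM in ebastine. KIF4A, a chromosome-bound motor that sets the length of the central spindle, stood at 17.3 and 8.18 FPKM. KIF18A, which damps microtubule ends as chromosomes align, stood at 4.34 and 1.68 FPKM. These were the lowest 3 of the 7, at 2.03-fold, 1.99-fold and 1.99-fold lower.

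The other mitotic motors differed by slightly less. KIFC1, a minus-end motor that gathers extra centrosomes into spindle poles, was the most abundant, at 31.7 FPKM in vehicle and 16.6 FPKM in ebastine. KIF15, which can stand in for KIF11 in holding spindle poles apart, stood at 5.23 and 2.52 FPKM. KIF18B, a regulator of astral microtubule length, stood at 8.75 and 4.52 FPKM. KIF20B, which acts late in cytokinesis, stood at 12.7 and 6.91 FPKM and was 1.73-fold lower. Every one of the 7 was lower in the ebastine library also after centring, with ratios from -0.77 to -0.48. Of all listed genes 51% were then lower. At that scaling 3 of the 7 still passed 1.5-fold, against 6.84% of all listed genes. The 4 KIF genes that the rule leaves out by name were lower too, by 2.57-fold (KIF20A), 2.50-fold (KIF2C), 2.01-fold (KIF23) and 1.84-fold (KIF11). The deposited locus of KIFC1 was placed on a haplotype sequence of chromosome 6. Of the 50-base stretches in the longest coding transcript of KIF4A, 14.4% also occurred in another gene, mainly the retrogene KIF4B, so the reads of KIF4A cannot all be assigned to it.

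The 3 listed kinesin genes of cargo transport were higher in the ebastine library, where 43% of all listed genes were. Of the 40 RefSeq KIF genes that fit the rule 11 were listed, and the others have no value here. KIFAP3, the accessory subunit that joins the heterotrimeric kinesin of cilia and vesicle transport to its cargo (chromosome 1, 169890470 to 170043879 in hg19), stood at 5.23 FPKM in vehicle and 7.67 FPKM in ebastine, 1.39-fold higher. KIF1A, which carries synaptic vesicle precursors in neurons, stood at 12.5 and 17.4 FPKM, 1.37-fold higher. KIF5C, a neuron-enriched heavy chain of conventional kinesin, stood at 4.16 and 5.70 FPKM, 1.30-fold higher. None of these reached 1.5-fold on the deposited scale, and all 3 did after centring, at 1.73-fold, 1.72-fold and 1.60-fold, as did 40.6% of all listed genes. The q-values in the authors' deposited table were 0.0253 for KIFAP3, 0.0261 for KIF1A and 0.0685 for KIF5C. Of all listed genes 15.6% were higher with a q-value under 0.05. The reported locus of KIF5C spans 250.5 kb, 1.65 times the length of the RefSeq gene, and can include other transcripts. KIF19, a motor that limits the length of motile cilia, was the one member under a mean of 1 FPKM, at 0.576 FPKM in vehicle and 0.201 FPKM in ebastine. Its log2 ratio was -0.39 with the pseudocount and -1.52 without it in the authors' deposited table, where its q-value was 0.130.

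**Figure D2:**
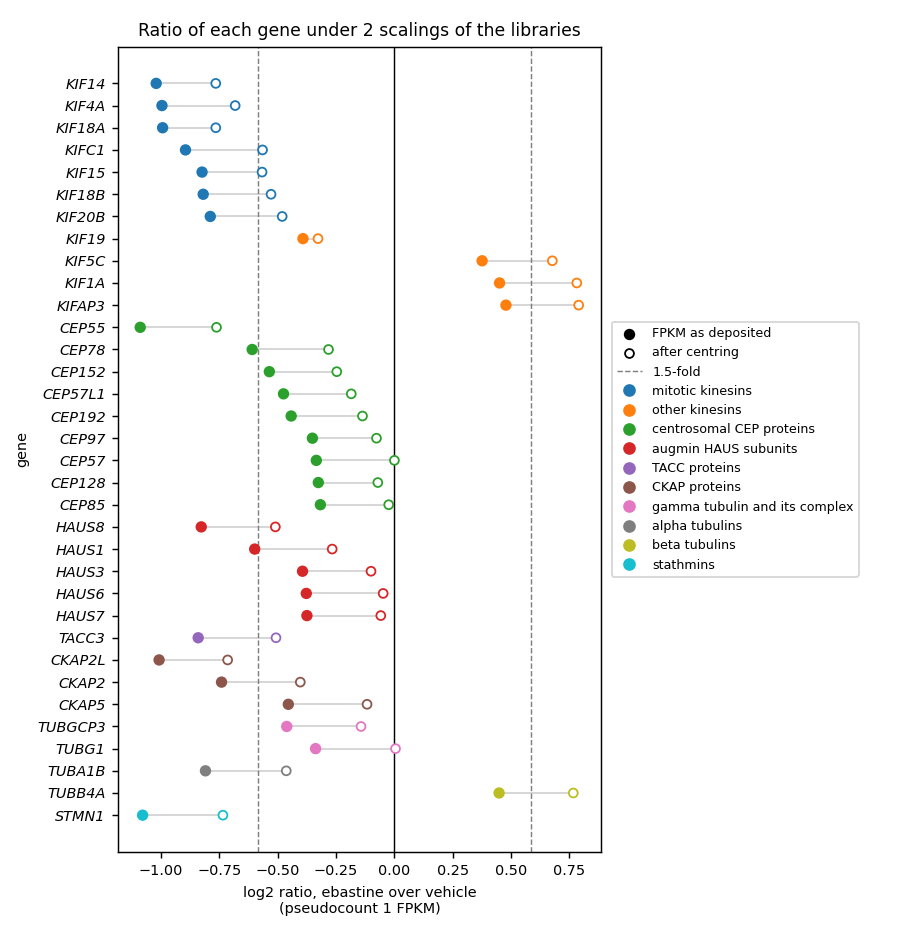
Log2 ratio of ebastine over vehicle for each gene, with the FPKM as deposited (filled points) and after centring (open points), coloured by role. Dashed lines mark 1.5-fold. The 7 mitotic kinesins stay left of 0 under both scalings. After centring TUBG1 lies at 0.0047 and CEP57 at 0, the latter by construction.

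All 9 listed CEP genes were lower, where 57% of all listed genes were, but CEP55 stood apart from the other 8 in size. By at least 1.5-fold 2 of the 9 were lower, against 18.6% of all listed genes. CEP55, a scaffold that brings the membrane-cutting ESCRT machinery to the midbody at the end of cytokinesis (chromosome 10, 95256369 to 95288849 in hg19), stood at 30.6 FPKM in vehicle and 13.9 FPKM in ebastine. It was 2.13-fold lower with the pseudocount, and its log2 ratio without one was -1.14 in the authors' deposited table. CEP78, a centriole protein that is mutated in an inherited retinal dystrophy, stood at 21.96 and 14.05 FPKM, 1.53-fold lower. The remaining 7 lay between 1.25-fold and 1.45-fold lower.

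Those 7 include proteins that build and cap centrioles. CEP152, which recruits the duplication kinase PLK4, stood at 6.77 and 4.36 FPKM, and CEP192, a scaffold of both PLK4 and the pericentriolar material, stood at 9.08 and 6.42 FPKM. CEP97, which caps the centriole with CCP110 and holds back cilium growth, stood at 4.52 and 3.33 FPKM. CEP57, a pericentriolar protein, stood at 28.7 and 22.6 FPKM, and its relative CEP57L1 stood at 6.62 and 4.49 FPKM. CEP128, a protein of the subdistal appendages, stood at 3.31 and 2.44 FPKM, and CEP85, a centrosome protein, stood at 6.15 and 4.74 FPKM. Of the 9 CEP genes, CEP55, CEP78 and CEP152 passed a q-value limit of 0.05 in the authors' deposited table. Of all listed genes 25.4% were lower at that limit. After centring, 8 of the 9 were lower and 1 of them, CEP55, still by 1.5-fold or more. Of all listed genes 51% were then lower, and 6.84% by at least 1.5-fold. Centring left CEP85, CEP128 and CEP97 between -0.08 and 0 on the log2 scale, and CEP57 at 0 by construction. The locus reported for CEP128 spans 669 kb, against 482.5 kb for the RefSeq gene.

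The listed subunits of augmin were lower. Of the 8 RefSeq HAUS genes 5 were listed, and all 5 were lower, where 57% of all listed genes were. By at least 1.5-fold 2 of the 5 were lower, against 18.6% of all listed genes. HAUS8, a subunit that binds microtubules directly, stood at 17.4 FPKM in vehicle and 9.35 FPKM in ebastine, 1.77-fold lower. HAUS1 stood at 28.9 and 18.8 FPKM. HAUS6, which contacts the gamma tubulin ring complex through NEDD1, stood at 21.0 and 15.9 FPKM, 1.30-fold lower. HAUS7 stood at 11.99 and 9.02 FPKM, also 1.30-fold lower, and HAUS3 stood at 6.62 and 4.80 FPKM, 1.31-fold lower. The order of the 5 by level was the same in both libraries, HAUS1, HAUS6, HAUS8, HAUS7 and HAUS3. HAUS8 and HAUS1 passed a q-value of 0.05 in the authors' deposited table, and the other three did not. Of all listed genes 25.4% were lower at that limit. After centring the 5 were still lower, HAUS3, HAUS6 and HAUS7 by no more than 1.07-fold, where 51% of all listed genes were lower. Of the 50-base stretches of HAUS7, 21.7% also lie in the overlapping gene TREX2, and of those of HAUS6, 21.5% lie in pseudogene copies. The locus reported for HAUS3 spans 170.2 kb, 12.4 times the length of its RefSeq gene.

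The listed genes for proteins that stabilise and nucleate spindle microtubules were lower. TACC3, which with CKAP5 and clathrin bridges kinetochore fibres, stood at 37.9 FPKM in vehicle and 20.7 FPKM in ebastine, 1.79-fold lower. CKAP5, the microtubule polymerase that TACC3 holds on the spindle, stood at 40.1 and 28.99 FPKM, 1.37-fold lower. CKAP2L and CKAP2, related proteins of the mitotic spindle, stood at 10.7 and 4.83 FPKM and at 49.3 and 29.1 FPKM, 2.01-fold and 1.67-fold lower. TACC3, CKAP5, CKAP2 and CKAP2L each passed a q-value limit of 0.05 in the authors' deposited table and stayed lower after centring. Of all listed genes 25.4% were lower at that limit, and 51% were lower after centring. Among the components of the ring complex, gamma tubulin itself, TUBG1, stood at 72.3 and 57.04 FPKM, and TUBGCP3, a core subunit, stood at 13.6 and 9.62 FPKM. Neither TUBG1 nor TUBGCP3 passed a q-value limit of 0.05 in the authors' deposited table, and TUBG1 lay on the other side of 0 after centring, at 0.0047 on the log2 scale. TUBG1 shares 29.9% of its 50-base stretches with other genes, mainly its neighbour TUBG2, and its reported locus of 35.7 kb is 6.43 times the length of the RefSeq gene.

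The 2 most abundant members, TUBA1B and STMN1, were both lower. TUBA1B, a widely expressed alpha tubulin (chromosome 12, 49521565 to 49525304 in hg19), stood at 333 FPKM in vehicle and 189.7 FPKM in ebastine, 1.75-fold lower. STMN1, the stathmin that binds tubulin dimers and promotes microtubule shrinkage (chromosome 1, 26210677 to 26233368 in hg19), stood at 178 and 83.8 FPKM, 2.11-fold lower. Summed over the 34 members, the level was 1054 FPKM in vehicle and 641 FPKM in ebastine. TUBA1B and STMN1 made up 48.5% of the vehicle sum and 57.6% of the difference. TUBB4A, a beta tubulin best known from brain, went against them at 6.64 and 9.43 FPKM, 1.36-fold higher, with a q-value of 0.0577 in the authors' deposited table. After centring STMN1 was 1.66-fold lower, TUBA1B was 1.38-fold lower and TUBB4A was 1.70-fold higher. TUBA1B is the member most exposed to shared reads, since 62.7% of its 50-base stretches also occur in other genes, TUBA1A and TUBA1C foremost. TUBB4A shares 5.99% and STMN1 shares none.

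**Figure D3:**
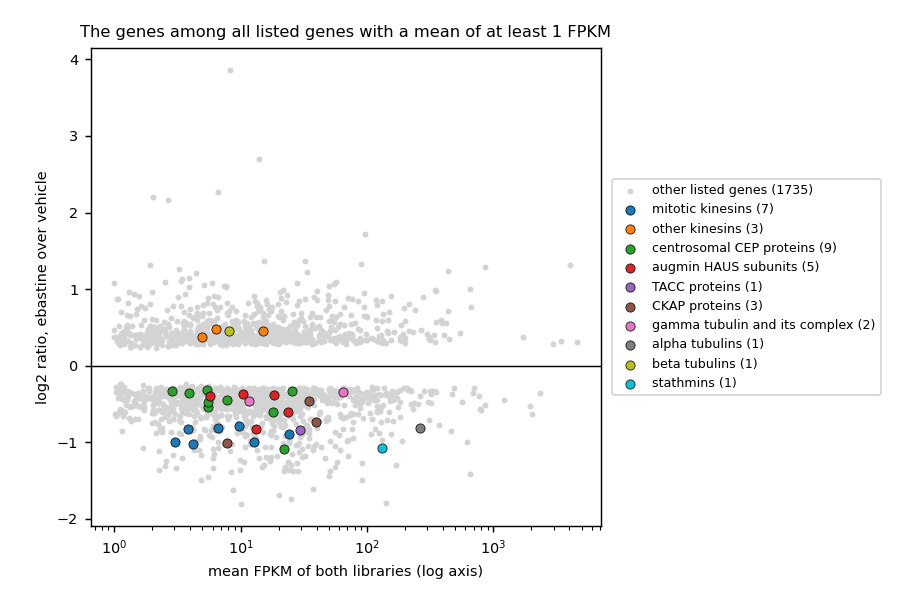
Log2 ratio of ebastine over vehicle against the mean FPKM of both libraries (log axis) for the 1768 listed genes whose mean reaches 1 FPKM, grey for the 1735 that are not members and coloured by role for the 33 that are. The empty band around 0 comes from the p-value limit of the table, and the 4 members above it are KIF5C, KIF1A, KIFAP3 and TUBB4A.

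The families were listed to different extents. RefSeq holds 144 protein-coding genes that fit the naming rule, and the 34 listed are 23.6% of them, where 14.2% of the 13714 genes the authors tested are listed. How many of the 144 were tested is not known, so the shares have different bases. The listed share was 5 of 8 HAUS genes, 3 of 4 CKAP genes, 11 of 40 kinesins, 9 of 39 CEP genes, 2 of 7 genes of gamma tubulin and its complex, 1 of 5 stathmins and 1 of 3 TACC genes. It was 1 of 10 alpha tubulins and 1 of 10 beta tubulins. None of the 18 IFT genes of RefSeq was listed under an IFT name. The table uses older names for 3 further genes of these families, which the rule does not reach. HSPB11, now IFT25, stood at 124.9 and 91.8 FPKM, FOPNL, now CEP20, stood at 24.7 and 17.2 FPKM, and CCDC41, now CEP83, stood at 7.37 and 5.73 FPKM.

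**Figure D4:**
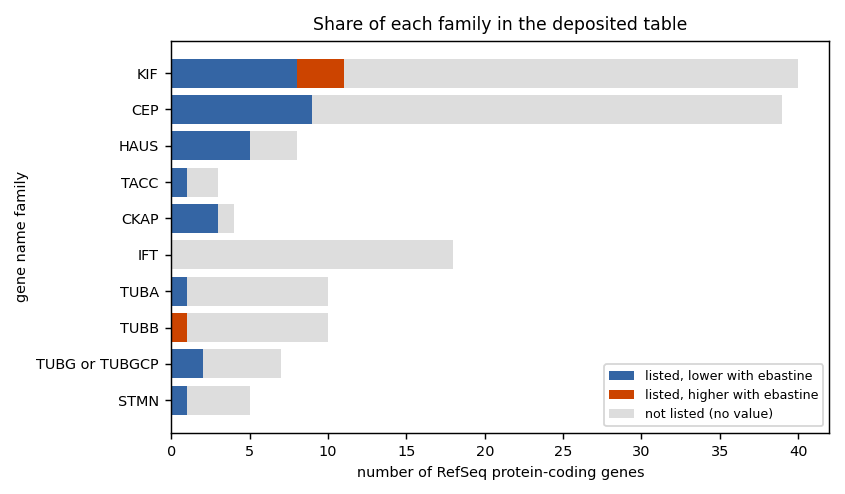
Number of RefSeq protein-coding genes in each name family, divided into those listed and lower with ebastine, listed and higher, and not listed. The IFT bar has no gene listed under an IFT name out of 18, and the HAUS bar has 5 of 8. HSPB11, FOPNL and CCDC41, which the table lists under older names, are not counted as listed.

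The other listed genes of centrioles and the pericentriolar material were lower as well. Of 18 genes of centriole duplication outside the rule, 11 (61.1%) were listed, against 14.2% of the genes the authors tested. All 11 were lower, with a median log2 ratio of -0.52, and 2 of them passed 1.5-fold. Of all listed genes 57% were lower, and 18.6% by at least 1.5-fold. After centring all 11 were still lower, with a median of -0.19, and 0 passed 1.5-fold. Of all listed genes 51% were then lower, and 6.84% by at least 1.5-fold. PLK4, the kinase that starts duplication, stood at 8.91 FPKM in vehicle and 4.51 FPKM in ebastine. POC1A, a centriole wall protein, stood at 10.1 and 6.02 FPKM. STIL, which PLK4 phosphorylates to recruit SASS6, stood at 9.33 and 6.002 FPKM, and SCLT1, a distal appendage protein, stood at 8.51 and 5.44 FPKM. Of 25 genes of the pericentriolar material and its satellites, 7 (28%) were listed. All 7 were lower, with a median of -0.69, and 4 of them passed 1.5-fold. After centring these 7 were still lower, 3 of them by 1.5-fold or more. The kinase NEK2, which dissolves the linker between centrosomes, stood at 34.01 and 13.7 FPKM, and the dynein regulator NDE1 stood at 11.0 and 4.88 FPKM. Centriolin (CNTRL) stood at 4.53 and 2.01 FPKM and MZT1, a ring complex subunit, stood at 13.6 and 8.02 FPKM.

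The genes of the cilium itself on the lists were listed about as often as all tested genes, of which 14.2% were. These lists do not hold every cilium gene. TMEM107 and TMEM237 of the transition zone are not on them, though listed with log2 ratios of -0.511 and -0.512. Of 30 genes of the BBSome (a coat complex for ciliary membrane cargo) and the transition zone 4 (13.3%) were listed. With the pseudocount none of the 4 was 1.5-fold apart on the deposited scale. BBS10 stood at 9.60 and 6.99 FPKM and CC2D2A stood at 1.99 and 3.04 FPKM. The log2 ratio of CC2D2A without the pseudocount was 0.61 in the authors' deposited table, which is past 1.5-fold. Of 16 further genes of intraflagellar transport and its dynein 2 (12.5%) were listed, HSPB11 and the dynein chain WDR34, which stood at 79.2 and 49.2 FPKM, 1.60-fold lower. Of 5 markers of multiciliated cells 2 were listed, RSPH1 at 2.47 and 4.64 FPKM and DNAH5 at 3.70 and 2.33 FPKM, and their part in these results was not tested.

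Genes of microtubule-associated proteins and of tubulin folding and modification went both ways. Of 30 microtubule-associated and plus-end proteins 5 were listed, 4 higher and 1 lower, where 43% of all listed genes were higher. Of the 5, MAP1B and MAP2 passed a q-value limit of 0.05 in the authors' deposited table. MAPRE3, a plus-end binding protein, stood at 7.15 and 9.77 FPKM, MAP1B stood at 6.74 and 9.19 FPKM and the autophagy protein MAP1LC3B stood at 16.1 and 21.3 FPKM, while MAP2 stood at 2.77 and 1.69 FPKM. Of 24 genes of tubulin folding and modification 3 were listed, 2 higher and 1 lower. The deacetylase SIRT2 stood at 20.0 and 27.9 FPKM, the folding cofactor TBCC stood at 12.5 and 16.3 FPKM, and VASH2, which removes the terminal tyrosine of alpha tubulin, stood at 7.36 and 5.27 FPKM. On the deposited scale with the pseudocount none of these 8 genes differed by 1.5-fold. Without it MAP2 and CLIP2 did, with log2 ratios of -0.71 and 0.61 in the authors' deposited table. CLIP2, of the first of these lists, stood at 0.929 and 1.41 FPKM. After centring SIRT2, TBCC, MAPRE3, MAP1B and MAP1LC3B passed 1.5-fold upward, as did 40.6% of all listed genes.

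The promoters of the members that were lower together were compared, because many genes of the late cell cycle carry a CHR element, bound by the DREAM and MuvB complexes, often with NF-Y boxes nearby. RefSeq promoters of build GRCh38.p14, from 250 bases before to 50 bases after the annotated start, were found for 32 of the 34 members, all but CEP78 and KIF19. The letters TTTGAA (a CHR element), TTCGAA (a CHR variant) and CCAAT (an NF-Y box) were searched on both strands, and TTCGAA reads the same on both. The 4 members with the lowest ratio and a mean of at least 5 FPKM are shown with every match in capitals, 5′ to 3′ on the gene's strand. CEP55 lies on the plus strand at chr10:93496362-93496661, STMN1 on the minus strand at chr1:25906370-25906669, CKAP2L on the minus strand at chr2:112764560-112764859 and KIF4A on the plus strand at chrX:70289854-70290153.
CEP55: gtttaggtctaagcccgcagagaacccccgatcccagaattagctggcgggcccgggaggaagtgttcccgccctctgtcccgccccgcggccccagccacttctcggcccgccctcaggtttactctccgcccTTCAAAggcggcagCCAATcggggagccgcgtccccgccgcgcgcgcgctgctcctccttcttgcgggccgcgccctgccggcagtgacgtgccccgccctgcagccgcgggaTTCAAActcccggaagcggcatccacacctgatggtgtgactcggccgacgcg
STMN1: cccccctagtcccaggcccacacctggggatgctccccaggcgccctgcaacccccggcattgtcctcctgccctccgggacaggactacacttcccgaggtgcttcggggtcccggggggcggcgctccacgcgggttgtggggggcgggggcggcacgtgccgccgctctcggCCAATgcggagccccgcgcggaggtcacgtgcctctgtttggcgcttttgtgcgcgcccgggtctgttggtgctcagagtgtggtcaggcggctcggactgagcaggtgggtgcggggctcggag
CKAP2L: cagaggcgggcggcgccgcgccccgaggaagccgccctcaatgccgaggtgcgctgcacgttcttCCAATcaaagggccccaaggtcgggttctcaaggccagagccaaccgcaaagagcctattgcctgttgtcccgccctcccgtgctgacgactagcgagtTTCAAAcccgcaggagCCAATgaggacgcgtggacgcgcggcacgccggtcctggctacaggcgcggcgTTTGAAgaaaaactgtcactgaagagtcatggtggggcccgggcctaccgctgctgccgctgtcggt
KIF4A: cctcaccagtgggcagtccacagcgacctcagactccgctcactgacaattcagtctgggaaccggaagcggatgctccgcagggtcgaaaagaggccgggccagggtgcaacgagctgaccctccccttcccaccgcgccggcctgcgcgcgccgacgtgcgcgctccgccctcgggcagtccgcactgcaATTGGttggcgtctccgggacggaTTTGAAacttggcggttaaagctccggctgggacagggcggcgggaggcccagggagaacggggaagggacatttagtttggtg

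Matches in reverse orientation appear as TTCAAA and ATTGG. CEP55 has a TTCAAA whose first base lies at -3 from the start and another at -116. CKAP2L has a TTTGAA at -17 and a TTCAAA at -86, each with a CCAAT upstream of it. In KIF4A a TTTGAA lies at -34, with ATTGG upstream of it at -58. STMN1 has 1 CCAAT and no CHR letters in this window. A match describes letters in the reference sequence and not a binding site, and the start that C4-2 cells use was not measured.

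Most members that were lower by at least 1.5-fold had CHR letters in this window, and no test of the shares was made. TTTGAA occurred in 10 of the 15 such promoters (66.7%), in 4 of the 17 other members' promoters (23.5%), in 14.6% of the 1384 listed genes' promoters and in 15.4% of all 27305 promoters of this length in the table. The 10 are all 7 mitotic kinesins with CEP55, CKAP2L and HAUS8. TTCGAA occurred in none of the 32, in 2.17% of the listed genes' promoters and in 1.45% of all promoters. CCAAT was in 9 of the 15 (60.0%) and in 9 of the 17 (52.9%). It was in 41.5% of the listed genes' promoters and in 35.7% of all promoters. Both CCAAT and TTTGAA were in 8 of the 15, 4 of the 17, 8.60% of the listed genes' promoters and 6.08% of all promoters. All 10 had a TTTGAA with its first base within 50 bases of the start, as did 1 of the 17 others, CKAP5. The share was 7.15% of the listed genes' promoters and 4.67% of all promoters. That window was chosen after the positions were seen. TACC3, TUBA1B, CKAP2 and HAUS1 were lower by at least 1.5-fold and had none of these letters in the window, and the promoters of KIF1A, KIF5C and KIFAP3 had none either, whereas TUBB4A had CCAAT alone.

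**Figure D5:**
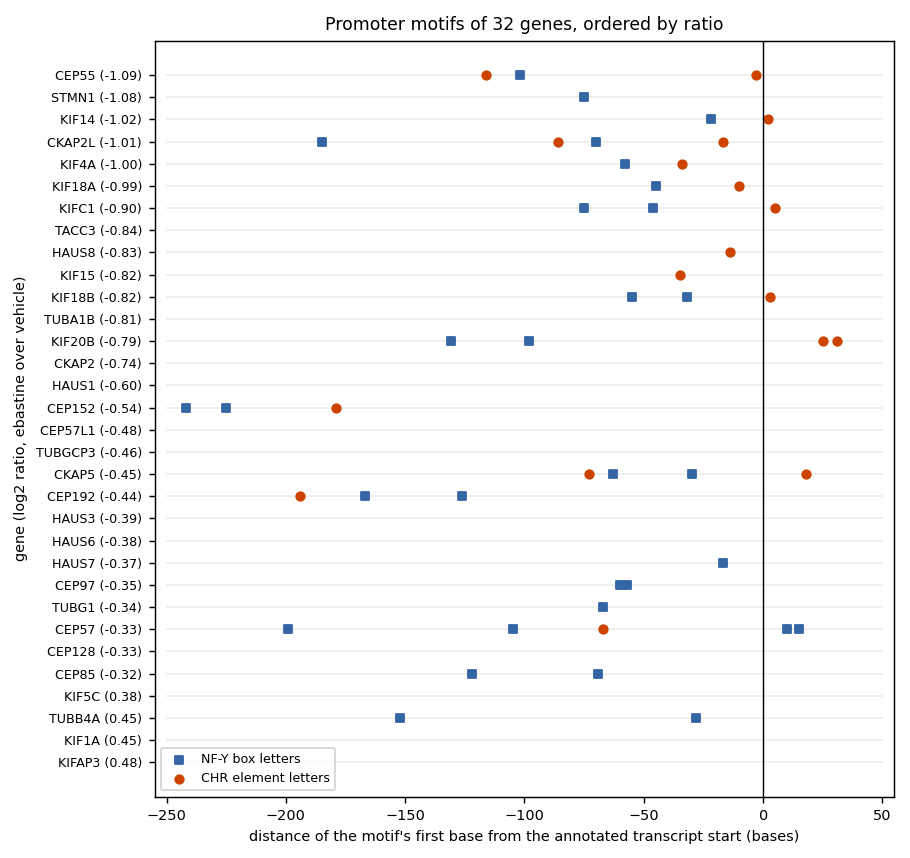
Distance in bases from the annotated transcript start to the first base of each CHR element (round points) and NF-Y box (square points), on either strand, in the promoters of 32 genes ordered from the lowest log2 ratio at the top to the highest at the bottom. Round points near the start are gathered in the upper rows, where 10 of the 15 genes lower by at least 1.5-fold have one within 50 bases.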

How the data were processed

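Polyadenylated RNA of 2 C4-2 cultures was sequenced, 1 library per group. The submitters' processing notes name TopHat2, Cuffdiff and hg19 but no versions. The deposited FPKM values, log2 fold change, score (the Cuffdiff test statistic, not used), p-value and q-value come from the authors' Cuffdiff comparison. Its q-values followed an adjustment over 13714 genes (the product of q and rank divided by p lay between 13701.2 and 13714.1), and its p-values compare 2 libraries, not conditions. The sources used here do not give the gene models, strand setting or scaling method. Ratios used a pseudocount of 1 FPKM, and counts a minimum mean of 1 FPKM. No test was made. Locus starts were taken as counted from 0, because the locus length then equalled the RefSeq length for 79 of 1725 genes, against 28. Shared 50-base stretches were counted in GENCODE 29 transcripts; the read length is not given in the sources used here. A planned protein comparison of tubulins was not made. The members and lists were chosen with earlier results of these data known. Members lower by at least 1.5-fold and the extremes of each role were named, with up to 4 genes of each other list. The ratio calculation was run on simulated data with planted changes larger than those of the members. That run does not show how far 2 libraries would differ without treatment. Python 3.11.15, pandas 2.3.3, numpy 2.4.6 and matplotlib 3.10.9 were used.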

Additional observations from a re-analysis of the deposited data

How the results depend on the processing

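No paired analysis was possible because each group held 1 library, and no replicate could be left out. The count of 16 members lower by at least 1.5-fold was 9 with a pseudocount of 5 FPKM, 6 after centring and 4 at a limit of 2-fold, and from 13 to 17 under the other settings tried. The count of 0 members higher by 1.5-fold was 4 after centring and 3 after upper quartile rescaling. The median log2 ratio of -0.54 was -0.62 and -0.41 with pseudocounts of 0.1 and 5 FPKM, -0.51 with no minimum mean, -0.25 after centring, -0.37 after upper quartile rescaling, -0.53 with equal sums and -0.82 for the 20 members that pass a q-value limit of 0.05 in the authors' deposited table. That last limit favours larger differences by its construction. Of the 34 members, all kept their direction under upper quartile rescaling. A pseudocount cannot change a direction. Equal sums multiplied the ebastine values by only 1.001, so that setting could hardly change one either. After centring TUBG1 turned, to 0.0047, CEP57 lay at 0 by construction, and 32 kept their direction. The luminal marker TMPRSS2 also turned after centring, to 0.021. Centring and both rescalings were computed on the filtered table. The depth is unknown and limits low genes such as KIF19 most.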

Other observations

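Without a pseudocount, 8 members were at least 2-fold lower by the ratio in the authors' deposited table, where 8.65% of the 1942 listed genes with a finite ratio were. The authors' deposited table gives KIF18A a log2 ratio of -1.37, against -0.99 with the pseudocount of 1 FPKM, and KIF15 one of -1.05, against -0.82.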
